A study of Mus musculus with 12 samples.

Results

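The 7 connexin genes described here, Gja1, Gja5, Gjc1, Gja4, Gja3, Gjb1 and Gjb2, were taken by name from a gene expression table of 26190 genes that holds 20 connexin genes in all. The table covers 12 RNA-seq libraries in 4 groups of 3 replicates. Both chambers, atria and ventricles, came from hearts of C57BL/6 mouse embryos at E11.5 (E11.5H). The other groups were the atrium-like and the ventricle-like part, cut out of heart organoids (HOs) after 13 days of culture. HOs were grown from embryoid bodies of mouse embryonic stem cells on a laminin-entactin gel with FGF4, and BMP4, LIF and BIO, an activator of Wnt signalling, were in the medium of the last culture days, so that both HO groups carry all these agents. The labels give C57BL/6 as the strain of every library, whereas the methods also name a stem cell line from a cross of C57BL/6 and JF1. The labels do not tell which HO parts came from the same organoid, or whether organoids or embryos were pooled, so the p-values measure the spread between these libraries only.

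Connexins assemble into channels in the cell membrane, and the channels of neighbouring cells dock to form gap junctions that pass ions and small molecules. In heart muscle these junctions lie mostly in the intercalated discs, where they carry the action potential from cell to cell. Gja1 encodes connexin 43, the main connexin of the working ventricle, and Gja5 encodes connexin 40, which makes fast junctions in atrial muscle, in trabecular and conduction cells of the ventricle and in arterial endothelium. Gjc1 encodes connexin 45, a slow channel of the early heart tube and of the nodes, and Gja4 encodes connexin 37 of endothelium. Gja3 encodes connexin 46, known best from the lens. Gjb1 (connexin 32) and Gjb2 (connexin 26) are connexins of liver and other epithelia.

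The sequences below are the 250 bases upstream of the gene start of the 4 members on which the results turn, given for GRCm38.p6 as listed by RefSeq, 5′ to 3′ on the strand of the gene. Of the 7 members, 6 had an entry, and Gjc1 had none. Capitals mark matches, on either strand, to 4 motifs of factors of heart or liver, which were the T-box core, spelled AGGTGT, the NKX2-5 element, the site of GATA factors, which bind cardiac promoters, spelled AGATAA, and the core bound by the liver factor HNF1, spelled GTTAAT.
Gja1 (chr10:56377050-56377299, plus strand): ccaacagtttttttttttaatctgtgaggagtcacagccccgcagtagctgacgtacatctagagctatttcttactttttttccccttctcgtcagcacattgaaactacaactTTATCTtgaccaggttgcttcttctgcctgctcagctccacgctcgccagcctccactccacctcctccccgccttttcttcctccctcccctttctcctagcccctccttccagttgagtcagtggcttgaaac
Gja5 (chr3:97032152-97032401, plus strand): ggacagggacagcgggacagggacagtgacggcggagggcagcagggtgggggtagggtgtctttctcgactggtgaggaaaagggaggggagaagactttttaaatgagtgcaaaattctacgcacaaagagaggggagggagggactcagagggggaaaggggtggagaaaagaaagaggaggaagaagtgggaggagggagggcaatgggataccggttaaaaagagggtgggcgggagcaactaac
Gjb1 (chrX:101376126-101376375, plus strand): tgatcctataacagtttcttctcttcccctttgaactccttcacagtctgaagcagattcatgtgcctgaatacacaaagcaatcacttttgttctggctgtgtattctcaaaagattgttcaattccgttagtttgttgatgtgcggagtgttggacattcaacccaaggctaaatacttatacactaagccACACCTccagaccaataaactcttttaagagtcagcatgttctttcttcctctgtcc
Gjb2 (chr14:57104703-57104952, minus strand): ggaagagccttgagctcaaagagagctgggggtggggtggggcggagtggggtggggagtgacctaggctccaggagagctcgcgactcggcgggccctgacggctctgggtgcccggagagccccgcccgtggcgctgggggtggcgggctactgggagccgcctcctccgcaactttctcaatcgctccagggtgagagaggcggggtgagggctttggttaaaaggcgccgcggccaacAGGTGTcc
The window of Gja1 held 1 match, to the GATA motif, which began 135 bases upstream of the start. The window of Gja5 held no match, which says only that these letters are not in it. The windows of Gjb1 and Gjb2 each held 1 T-box match, which began 57 and 8 bases upstream of the start. RefSeq also lists later starts of Gjb1, whose windows are not shown. The window of the start at 101377235 held 1 HNF1 match, which began 48 bases upstream. That of the start at 101382118 held 1 NKX2-5 match, which began 148 bases upstream, and that of the start at 101383732 held none. The windows of Gja3 and Gja4 are not shown either. That of Gja3 also held 1 HNF1 match, which began 239 bases upstream of the gene start. A later start of Gja3 had 1 T-box match, which began 217 bases upstream, and the window of Gja4 held no match. Among 32851 windows of the same length, 11.8% held the T-box letters, 10.1% the NKX2-5 letters, 9.99% the GATA letters and 6.43% the HNF1 letters, so that such matches were common.

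The libraries held 23971258 to 30540993 fragments on genes. Values are FPKM as deposited, which are fragments per length of transcript and per library total and can be compared between genes. Tests used edgeR's quasi-likelihood test on fragment counts with Benjamini-Hochberg adjustment over all genes tested, and a gene passed at an adjusted p under 0.05 and a change over 2-fold. Fold changes are given on the log2 scale with their standard error (SE). Replicates resembled each other more in E11.5H (Pearson r of log2 expression 0.984 to 0.99) than in HOs (0.776 to 0.926). Chamber markers in E11.5H went with the labels, with 6 of 8 atrial genes higher and 1, Bmp10, lower in atria. Of the ventricular genes, 8 of 8 were higher in ventricles. Among all genes tested, 2.92% passed as higher and 1.97% as lower in atria. The lists were chosen with earlier results of these data known, so that they are no independent check of the labels. Between the HO parts none of these marker genes passed. The summed FPKM of 16 cardiomyocyte genes ranged over 13462 to 16233 in E11.5H, over 239 to 919 in atrium-like parts and over 1477 to 3419 in ventricle-like parts. A list of 12 hepatocyte and visceral endoderm genes summed to 14.2 to 17.2 FPKM in E11.5H. The sums were 14161, 685 and 5341 FPKM in atrium-like replicates 1, 2 and 3, and 366, 109 and 5533 FPKM in ventricle-like replicates 1, 2 and 3. A list of 11 gut and other epithelial genes summed to 38.0 to 58.0 FPKM in E11.5H and to 581 to 3547 FPKM in HOs. Erythroid genes summed to 7418 to 73498 FPKM in E11.5H, highest in ventricular replicate 3, and to 2.36 to 27.2 FPKM in HOs, and their part in the FPKM of other genes was not tested. In such bulk samples, fewer cells of a type and less RNA per cell cannot be told apart.

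**Figure D1:**
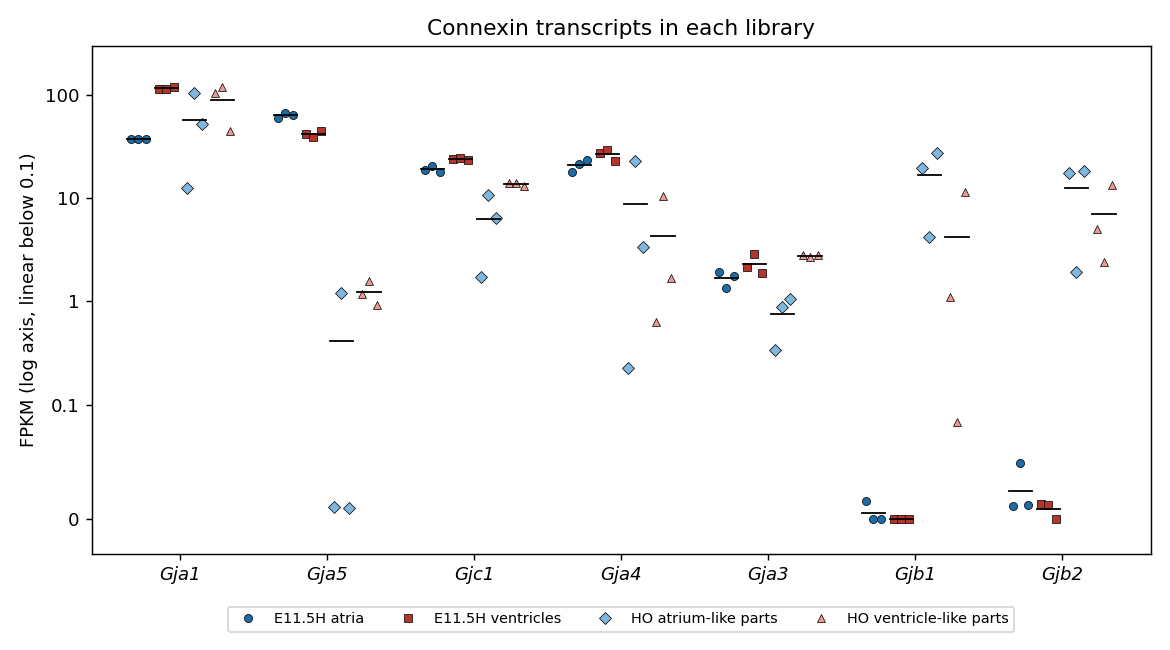
FPKM of the 7 connexins (horizontal axis) in each of the 12 libraries, on a vertical axis that is logarithmic above 0.1 and linear below. Each symbol is 1 library and the bar is the mean of 3. Gja5 lies between 39.6 and 66.9 FPKM in E11.5H and at no more than 1.59 FPKM in HOs, whereas Gjb1 and Gjb2 lie below 0.1 FPKM in every E11.5H library.

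Gja1 was the connexin with the highest level in embryonic ventricles, and Gja5 in embryonic atria. Gja1 (chromosome 10 from 56377300 to 56390419, GRCm38) had 37.7, 38.0 and 37.5 FPKM in the 3 libraries of E11.5H atria and 114, 116 and 121 FPKM in those of E11.5H ventricles. The chambers did not overlap, and the spread within each was small. Gja1 was lower in atria by a log2 fold change of -1.71 (SE 0.07, edgeR adjusted p = 3.81e-07), and was the only one of the 5 members tested that passed, where 4.9% of all 14536 genes tested passed. Of all genes, 1.97% passed as lower and 2.92% as higher in atria, or 287 and 425 genes, which became 199 and 766 when libraries were scaled to cardiomyocyte genes. When all 12 libraries were fitted together, so that the wider spread of HOs entered the test, the value was -1.72 and the call was lost (edgeR adjusted p = 0.369).

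Gja5 (chromosome 3 from 97032402 to 97053634) had 60.6, 66.9 and 64.8 FPKM in atria and 41.7, 39.6 and 44.5 FPKM in ventricles of E11.5H, again without overlap. Its log2 fold change of 0.54 (SE 0.08, edgeR adjusted p = 0.00115) stayed under the 2-fold limit. The annotation places an antisense gene, 4930573H18Rik, opposite to Gja5, and as the use of strand in counting is not given in the sources used here, reads of that gene could count for Gja5.

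Gjc1 (chromosome 11 from 102799478 to 102819686) had 18.9, 20.5 and 17.9 FPKM in atria and 24.2, 24.5 and 23.6 FPKM in ventricles of E11.5H. It was lower in atria by -0.40 on the log2 scale (SE 0.08, edgeR adjusted p = 0.0068), also under the 2-fold limit. Gja4 (chromosome 4 from 127311420 to 127314039) had 18, 21.5 and 23.3 FPKM in atria and 27.5, 29.5 and 22.9 FPKM in ventricles, and the chambers overlapped (log2 fold change -0.42, SE 0.12, edgeR adjusted p = 0.0495). Gja3 (chromosome 14 from 57034460 to 57058030) had 1.91, 1.34 and 1.78 FPKM in atria and 2.17, 2.86 and 1.87 FPKM in ventricles, which overlapped (log2 fold change -0.52, SE 0.26, edgeR adjusted p = 0.245). The groups of 3 members, Gja1, Gja5 and Gjc1, did not overlap between the chambers, as was true of 33.1% of all genes tested.

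Gjb1 (chromosome X from 101376376 to 101385629) and Gjb2 (chromosome 14 from 57098602 to 57104702) were near 0 in both chambers and too low to be tested there. Gjb1 had 1 fragment in atrial replicate 1 and no other fragment in E11.5H. Gjb2 had 1, 4 and 1 fragments in atria and 1, 1 and 0 in ventricles. By counting error alone, 0 fragments still allow for 3, which are 0.0982 to 0.1156 CPM in the E11.5H libraries.

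Gja5 made up 44.6% ± 0.479 (SD, n = 3) of the FPKM summed over the 7 members in atria and 19.8% ± 1.1 in ventricles. Gja1 made up 26.3% ± 1.04 in atria and 55.3% ± 1.19 in ventricles. In both chambers these genes were followed by Gja4 and Gjc1, whose libraries overlapped, then by Gja3, and then by Gjb2 and Gjb1, which overlapped as well. The log2 ratio of Gja1 to Gja5, computed on FPKM with a pseudocount of 0.1, was -0.68, -0.81 and -0.79 in atria and 1.45, 1.55 and 1.44 in ventricles. The ratios and the shares of both genes did not overlap between the chambers. For each, p was 0.1 in the two-sided exact permutation test, and 3 against 3 libraries allow no smaller p (adjusted 0.175 over 28 comparisons of shares and 0.16 over 8 of ratios).

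**Figure D2:**
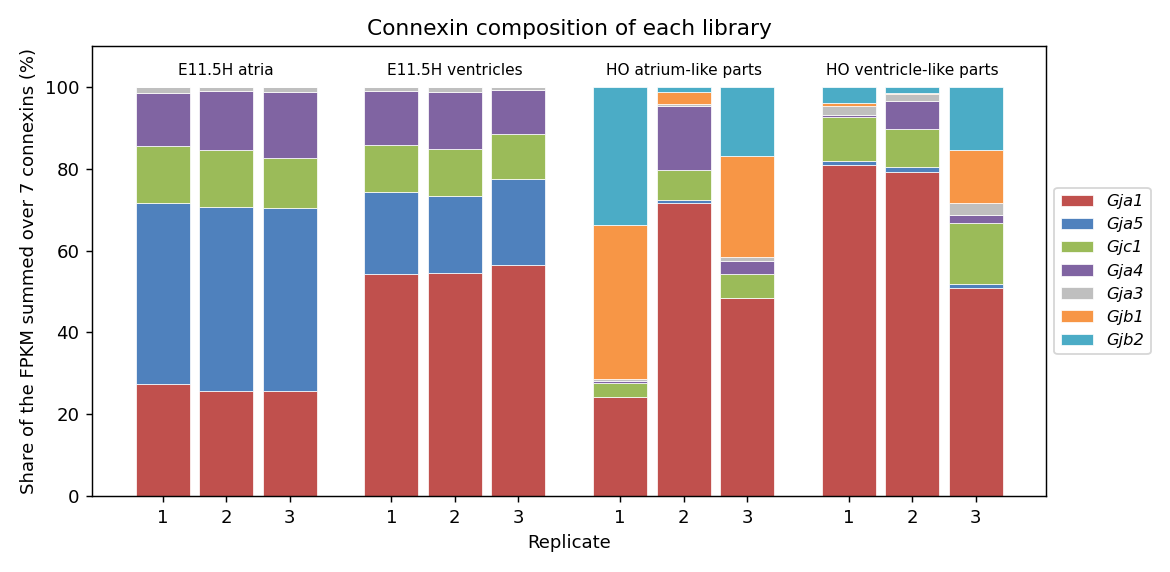
Share of each connexin in the FPKM summed over the 7 members (vertical axis, percent), with 1 stacked bar per library, grouped by the 4 groups. Gja5 holds 44.2% to 45.1% of the sum in E11.5H atria and at most 1.05% in HOs, and Gja1 holds between 24.3% and 80.9% in HOs.

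Gja5 was low in all HO libraries. Atrium-like parts had 0.011, 1.22 and 0.00966 FPKM of Gja5, which were 1, 131 and 1 fragments, and ventricle-like parts had 1.19, 1.59 and 0.921 FPKM, which were 124, 165 and 95 fragments. Replicates 1 and 3 of the atrium-like parts thus held Gja5 at or under the floor of 3 fragments, and every HO library lay below every E11.5H library. Gja5 fell by 7.21 on the log2 scale from E11.5H atria to atrium-like parts (SE 1.54, edgeR adjusted p = 0.0171) and by 5.18 from E11.5H ventricles to ventricle-like parts (SE 0.23, edgeR adjusted p = 0.000781). By summed fragments per library total it was 143 times lower in atrium-like parts and 33.0 times lower in ventricle-like parts. Of the 133 fragments in atrium-like parts 131 were in replicate 2, and without that library the log2 fold change was -12.22, a fitted value that depends on how counts near 0 are treated. Of all genes tested, 24.8% passed between atrium-like parts and atria, 8.81% as lower, and 18.9% passed between ventricle-like parts and ventricles, 7.35% as lower. The call in atrium-like parts rested on all libraries of E11.5H, since leaving out any 1 of the 3 atria gave edgeR adjusted p-values of 0.0587 to 0.0615 with a log2 fold change of -7.25 to -7.21. Leaving out any of them also cut the number of all genes that passed in this comparison, from 3821 to between 1662 and 1726. DESeq2 gave -7.28 there with no adjusted p. Groups without overlap, as seen for Gja5, made up 54.4% of all genes tested in the atrial comparison and 50.7% in the ventricular one.

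Gja1 was the connexin with the highest level in 5 of the 6 HO libraries. It had 12.7, 106 and 53.1 FPKM in atrium-like parts and 106, 120 and 45.1 FPKM in ventricle-like parts. Both HO groups overlapped with their embryonic chamber, and atrium-like replicate 1 lay below all atria. The log2 fold change was 0.69 (SE 0.6, edgeR adjusted p = 0.413) against atria and -0.47 (SE 0.34, edgeR adjusted p = 0.334) against ventricles. Without atrium-like replicate 1 the value against atria was 1.12 (edgeR adjusted p = 0.0218), and without atrium-like replicate 2 it was -0.01 (edgeR adjusted p = 0.995).

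Gjc1 had 1.73, 10.8 and 6.48 FPKM in atrium-like parts, all below the atria, with a log2 fold change of -1.49 (SE 0.53, edgeR adjusted p = 0.0756). Leaving out atrium-like replicate 1 or 2 brought it past the threshold (-1.1, edgeR adjusted p = 0.0155, and -2.02, edgeR adjusted p = 0.0226), as did DESeq2 (adjusted p = 0.0198) and the fit of all 12 libraries (edgeR adjusted p = 0.0173). Ventricle-like parts had 14.2, 14.1 and 13.2 FPKM, which lay close together and all below the ventricles. There Gjc1 was lower by -0.90 on the log2 scale (SE 0.10, edgeR adjusted p = 0.00315), under the 2-fold limit, and the direction turned when libraries were scaled to the cardiomyocyte genes (1.93). That scaling is described with the levels relative to cardiomyocyte genes.

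Gja4 differed widely among HOs, with 0.228, 22.9 and 3.39 FPKM in atrium-like parts. Ventricle-like parts had 0.634, 10.5 and 1.7 FPKM. Replicate 2 was highest in both HO groups. Ventricle-like parts lay below all ventricles (log2 fold change -2.75, SE 0.97, edgeR adjusted p = 0.0775), and atrium-like parts overlapped with atria (-1.21, SE 1.2, edgeR adjusted p = 0.474). Without replicate 2 of the HO group, Gja4 passed in both, at -4.57 (edgeR adjusted p = 0.00384) in ventricle-like and -3.34 (edgeR adjusted p = 0.035) in atrium-like parts, and DESeq2 called it in ventricle-like parts with all libraries (-2.76, adjusted p = 0.00473). A list of 10 endothelial genes summed to 13.6, 74.6 and 32.6 FPKM in atrium-like parts, to 38.2, 51.5 and 25 FPKM in ventricle-like parts and to 160 to 195 FPKM in E11.5H. This list was highest in replicate 2 of both HO groups, as Gja4 was, and its part in the levels of Gja4 was not tested. Relative to the mean log2 level of the endothelial genes, Gja4 stood at 0.61 in atria, 1.07 in ventricles, 1.24 in atrium-like and 1.14 in ventricle-like parts, and the HO libraries ranged from -0.89 to 2.31.

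Gja3 had 0.338, 0.887 and 1.05 FPKM in atrium-like parts, all below the atria, without passing the test (log2 fold change -1.01, SE 0.51, edgeR adjusted p = 0.178). Ventricle-like parts had 2.83, 2.68 and 2.81 FPKM, which overlapped with the ventricles (0.18, SE 0.28, edgeR adjusted p = 0.65). Of 8 genes of the lens, where Gja3 is best known, 2 were at 0 in all 3 libraries of each HO group and 4 in all libraries of each embryonic chamber. By level the list went the other way. It summed to 336 to 413 FPKM in atria and 361 to 381 FPKM in ventricles. In atrium-like parts the sum was 53.1 to 117 FPKM, and in ventricle-like parts 121 to 238 FPKM. The part of these genes in the levels of Gja3 was not tested.

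Gjb1 and Gjb2 showed the opposite pattern to Gja5. Gjb1 had 19.6, 4.22 and 27.2 FPKM in atrium-like parts, in which replicate 2 was lowest. In ventricle-like parts it had 65, 5 and 673 fragments, of which the first 2 were 1.1 and 0.0846 FPKM. The atrium-like parts held 2872 fragments of Gjb1 in all against 1 fragment in the atria, a ratio per library total of 3133 (95% counting interval 562 to 123787). Gjb1 rose in atrium-like parts (edgeR adjusted p = 0.00323), where 16% of all genes tested passed as higher. It passed the filter for low counts only through its HO counts, so that this test could call it only as higher. In ventricle-like parts it held 743 fragments in all, at least 244-fold higher than the ventricles with their 0 fragments, when 3 fragments over the group are taken as the floor. It was not tested there because it missed the filter for low counts, with 5 fragments in ventricle-like replicate 2.

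Gjb2 had 17.7, 1.93 and 18.4 FPKM in atrium-like parts and 5.01, 2.43 and 13.6 FPKM in ventricle-like parts. It rose against atria (edgeR adjusted p = 0.00531), with 2812 fragments against 6, a ratio per library total of 511 (95% counting interval 235 to 1394). It also rose against ventricles (edgeR adjusted p = 0.00349), with 1648 fragments against 2, a ratio of 812 (224 to 6708), where 11.6% of all genes tested passed as higher. These intervals cover counting error only. In both tests Gjb2 passed the filter for low counts only through its HO counts, so that it could be called only as higher.

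Genes of hepatocytes, visceral endoderm and epithelia differed between the same groups. All 12 hepatocyte and visceral endoderm genes and all 11 epithelial genes passed as higher in atrium-like parts, where 16% of all genes tested did. In ventricle-like parts 5 of 8 and 8 of 9 tested did so, where 11.6% of all genes tested did. Only 7 of the 12 and 4 of the 11 were high enough in E11.5H to be tested between its chambers. The others passed the filter for low counts through HO libraries, so that they could come out only as higher. Among the 6 HO libraries, the 3 with the highest Gjb1 (atrium-like replicates 1 and 3 and ventricle-like replicate 3) were those with the highest hepatocyte and visceral endoderm sum, and the 3 with the highest Gjb2 were the same libraries and had the highest epithelial sums. In E11.5H, Serpina1a of the first list was at 0 in every library. The part of such cells in the levels of Gjb1 and Gjb2 was not tested.

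**Figure D3:**
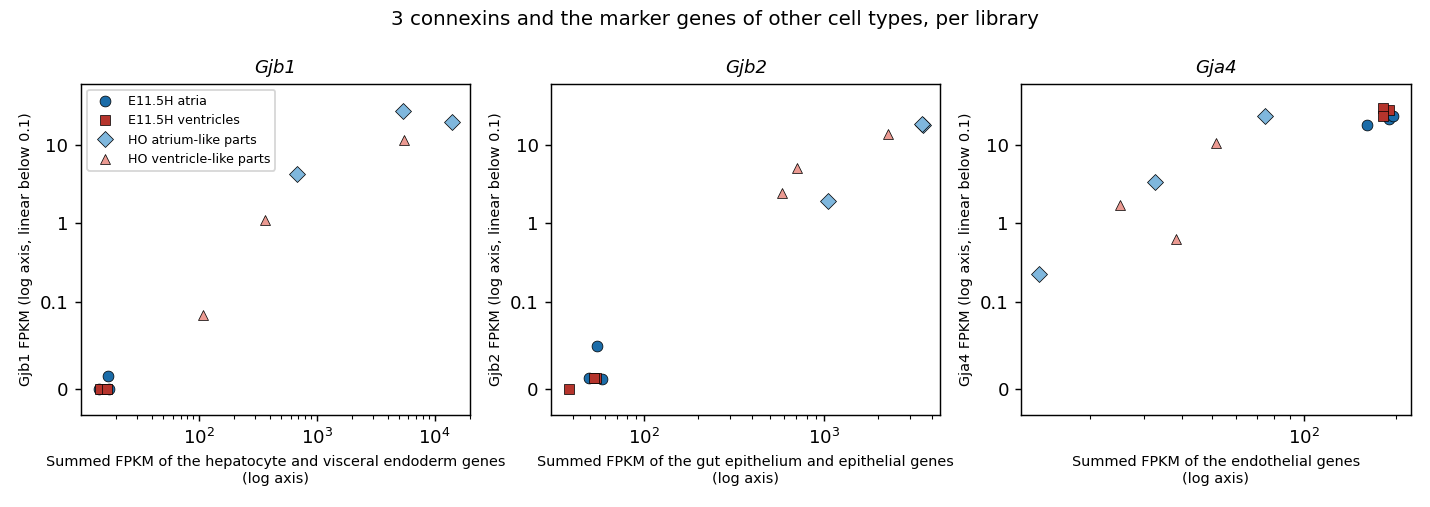
FPKM of Gjb1, Gjb2 and Gja4 (vertical axes, logarithmic above 0.1 and linear below) against the summed FPKM of hepatocyte and visceral endoderm genes, epithelial genes and endothelial genes (horizontal axes, logarithmic), with 1 symbol per library. The HO libraries spread from 109 to 14161 FPKM of the hepatocyte and visceral endoderm genes and from 0.0846 to 27.2 FPKM of Gjb1.

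The order of connexins in HOs differed from that in E11.5H and varied between libraries. Gja1 made up 80.9%, 79.3% and 50.7% of the summed FPKM in ventricle-like replicates 1, 2 and 3, and Gjc1 came next in replicates 1 and 2 and Gjb2 in replicate 3. In atrium-like replicate 1, Gjb1 led with 37.4%, followed by Gjb2 with 33.9% and Gja1 with 24.3%. In atrium-like replicates 2 and 3 Gja1 led with 71.7% and 48.4%, and Gja4 and Gjb1 came next. Over the 3 libraries Gja1 made up 48.2% ± 23.7 (SD, n = 3) in atrium-like and 70.3% ± 17.0 in ventricle-like parts, and Gja5 0.283% ± 0.465 and 0.999% ± 0.0757. In ventricle-like parts Gja1 did not overlap with the next gene, and in atrium-like parts neighbours among the 5 highest genes overlapped, and Gjc1, the fifth, did not overlap with Gja3 after it.

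The log2 ratio of Gja1 to Gja5 was 6.85, 6.34 and 8.92 in atrium-like and 6.36, 6.16 and 5.47 in ventricle-like parts, so that every HO library lay above every E11.5H library. The mean of this log2 ratio exceeded that of atria by 8.13 in atrium-like parts, and that of ventricles by 4.51 in ventricle-like parts (two-sided exact permutation p = 0.1, which is the smallest possible, adjusted 0.16, n = 3 per group). The ratio in atrium-like parts depended on the pseudocount, as 2 of its libraries held 1 fragment of Gja5 each. The HO parts overlapped in it (exact permutation p = 0.2, n = 3). The log2 ratio of Gja1 to Gjc1 was 0.98 ± 0.09 (SD, n = 3) in atria, 2.28 ± 0.07 in ventricles, 3.04 ± 0.24 in atrium-like and 2.58 ± 0.71 in ventricle-like parts. It was higher in atrium-like parts than in atria without overlap (exact permutation p = 0.1, n = 3), and it overlapped between ventricle-like parts and ventricles (exact permutation p = 0.4, n = 3).

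Between the HO parts no connexin passed the test, nor did any of the 15703 genes tested (0%, with 889 genes at an unadjusted p under 0.05). Gja3 and Gjc1 were lower in every atrium-like than in every ventricle-like library, and the other 5 members overlapped. For Gja3 the log2 fold change was -1.74 (SE 0.50, unadjusted p = 0.013 and adjusted p = 0.75 by edgeR), which became -0.52 under the scaling to cardiomyocyte genes (edgeR adjusted p = 0.703). For Gjc1 it was -1.04 (SE 0.53, edgeR adjusted p = 0.75), which became 0.1 under that scaling. Non-overlapping groups occurred in 13.3% of all genes tested. The differences of the other members were -0.58 ± 0.69 (SE) for Gja1, -1.59 ± 1.65 for Gja5, 1.08 ± 1.56 for Gja4, 2.25 ± 1.57 for Gjb1 and 1.11 ± 1.0 for Gjb2, so that differences of several fold in either direction lay within the error. By DESeq2, 72 genes passed between the HO parts and no member was among them.

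**Figure D4:**
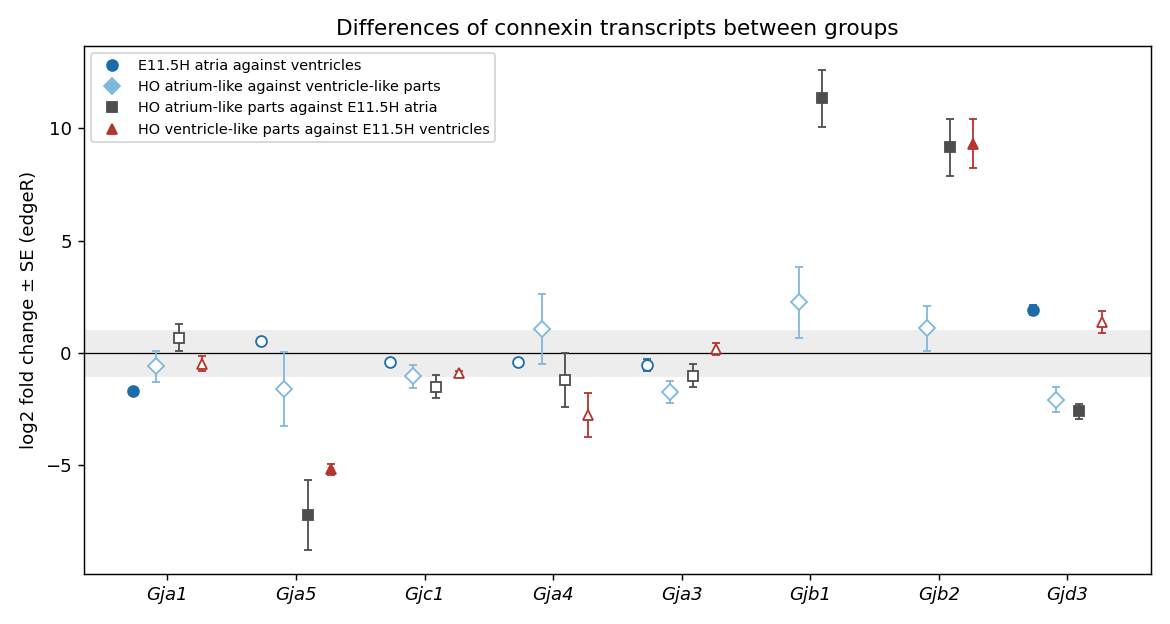
log2 fold change with its SE (vertical axis, edgeR) of the 7 members and Gjd3 (horizontal axis) in 4 comparisons. Filled symbols passed the threshold, open symbols did not, the grey band marks changes under 2-fold, and genes that missed the filter for low counts have no symbol. Gja5 lies at -7.21 and -5.18 and Gjb2 at 9.16 and 9.32 in the 2 comparisons of HOs with E11.5H, where the fitted sizes for Gjb1 and Gjb2 depend on how counts near 0 are treated.

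Whether the chamber difference was the same in HOs as in E11.5H was tested as an interaction over all 12 libraries, in which 0.152% of 16494 genes passed, 0.0243% as higher and 0.127% as lower. None of the 7 members did. The interaction of Gja5 was -2.04 (SE 1.34, edgeR adjusted p = 0.574), and without atrium-like replicate 2, the only atrium-like library with more than 1 fragment of Gja5, it was -7.03 and passed (edgeR adjusted p = 6.91e-05). The value of -7.03 depends on how counts near 0 are treated. Leaving out that library also raised the number of all genes that passed, from 25 to 216. Gja1 had an interaction of 1.15 (SE 0.75, edgeR adjusted p = 0.571) and Gja3 of -1.21 (SE 0.55, edgeR adjusted p = 0.428).

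Levels were also set against the mean log2 level of the 16 cardiomyocyte genes, all of which passed as lower in atrium-like parts and 15 of which did so in ventricle-like parts. On this scale Gja1 stood at -2.05 ± 0.11 (SD, n = 3) in atria, -0.62 ± 0.06 in ventricles, 2.14 ± 0.81 in atrium-like and 1.5 ± 1.46 in ventricle-like parts. Gjc1 stood at -3.04 ± 0.17, -2.90 ± 0.05, -0.90 ± 0.58 and -1.08 ± 0.76 in the same order of groups. Every HO library lay above every E11.5H library in both genes, on a scale on which most genes are higher in HOs, since under the scaling of libraries to cardiomyocyte genes 14224 of 15418 genes passed as higher in atrium-like parts and 13584 of 15094 in ventricle-like parts. Gja5 stood at -1.29 ± 0.18 in atria, -2.11 ± 0.12 in ventricles, -5.23 ± 1.86 in atrium-like and -4.5 ± 1.08 in ventricle-like parts, so that it was lower in HOs on this scale too (each comparison with E11.5H, exact permutation p = 0.1, the smallest possible, adjusted 0.165 over 28, n = 3).

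Scaling the libraries to the cardiomyocyte genes in edgeR moved the median over all genes, on the log2 scale, by 3.94 between atrium-like parts and atria, by 2.82 between ventricle-like parts and ventricles, by 1.41 between the HO parts and by 0.27 between the chambers of E11.5H. Under it Gja5 remained lower in HOs, by -3.63 (edgeR adjusted p = 0.0177) and -2.26 (edgeR adjusted p = 0.00558), which was -7.64 and -5.17 relative to the median of all genes. Gja1 was 4.32 (edgeR adjusted p = 0.000137) and 2.51 (edgeR adjusted p = 0.00578) higher in HOs under it, which was 0.31 and -0.40 relative to the median. The values of Gjc1, Gja3 and Gja4 in atrium-like parts turned from negative to positive, at 2.15, 2.72 and 2.34, and stood at -1.85, -1.29 and -1.67 relative to the median. Between the HO parts, 1019 of 15703 genes passed as higher in atrium-like parts under this scaling and 2 as lower. Gjb1 (4.5, edgeR adjusted p = 0.0206) and Gjb2 (3.12, edgeR adjusted p = 0.0433) were among the higher ones. They stood at 3.11 and 1.73 relative to the median.

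**Figure D5:**
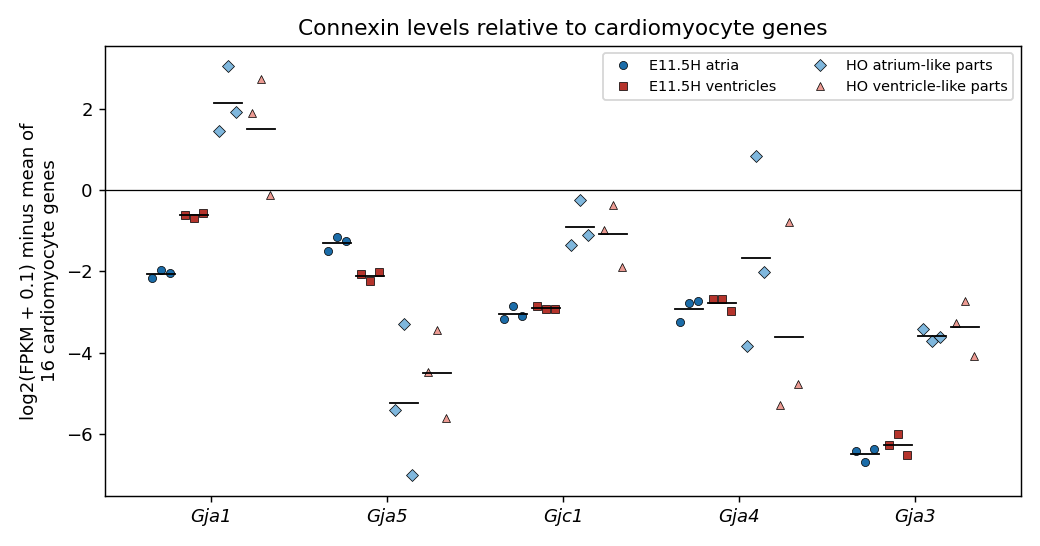
Level of 5 connexins relative to cardiomyocyte genes, as log2(FPKM + 0.1) minus the mean of the same measure over 16 cardiomyocyte genes (vertical axis), with 1 symbol per library and the mean of 3 as a bar. Gja1 and Gjc1 lie higher and Gja5 lower in every HO library than in every E11.5H library.

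Of the other 13 connexin and 3 pannexin genes, 6 reached a mean of 1 FPKM in some group, among them Gjd3, Gjb5, Panx1 and Panx2. The 7 members held 97.2% to 99.4% of the FPKM of all 20 connexin genes in E11.5H and 81.5% to 97.2% in HOs. Gja10 had no fragment in any library. Gjd3 encodes a connexin of small conductance known from the nodes of the mouse heart. It had 3.2, 3.61 and 3.72 FPKM in atria and 0.73, 0.998 and 0.936 FPKM in ventricles of E11.5H, and it was higher in atria (1.91, SE 0.23, edgeR adjusted p = 0.000467). HOs had 0.375, 0.566 and 0.62 FPKM in atrium-like and 2.99, 1.17 and 3.17 FPKM in ventricle-like parts, the reverse order without overlap. Between the HO parts 13.3% of all genes tested did not overlap, and no gene passed. Gjd3 fell by 2.59 from atria to atrium-like parts (SE 0.34, edgeR adjusted p = 0.0047), which became 1.27 under the scaling to cardiomyocyte genes (edgeR adjusted p = 0.09). The difference of 1.37 from ventricles to ventricle-like parts did not pass (SE 0.49, edgeR adjusted p = 0.0793).

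Gjb5, a connexin of skin and other epithelia, passed as higher in ventricle-like parts (3.08, SE 0.72, edgeR adjusted p = 0.0248). It had 4.0, 1.38 and 1.25 FPKM there and 0.329, 0.273 and 0.139 FPKM in ventricles, without overlap. In atrium-like parts it had 0.082, 1.18 and 11.6 FPKM, highest in replicate 3. Panx2 was higher in atria than in ventricles of E11.5H (1.65, SE 0.27, edgeR adjusted p = 0.00299) and fell by 2.72 in atrium-like parts (SE 0.53, edgeR adjusted p = 0.0131), which became 1.17 under the scaling to cardiomyocyte genes. Panx1, a pannexin of many tissues, passed in no comparison.

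Connexins are held in the intercalated disc with cadherin, desmosome and anchoring proteins, and 20 genes of the disc were all tested. In E11.5H 1 of the 20 passed, where 4.9% of all genes did, and their median was -0.16 against 0.01 for all genes. This was Dsc2 (desmocollin 2, 1.26, edgeR adjusted p = 0.00107), higher in atria. In atrium-like parts 1 of the 20 passed as higher and 6 as lower, where 16% and 8.81% of all genes did, with a median of -0.42 against 0.06 for all genes, and under the scaling to cardiomyocyte genes 3 of these 7 turned sign. Among those that fell was Ctnna3 (-4.27, edgeR adjusted p = 0.0176), alpha-T-catenin, which kept its sign (-0.79) without passing under that scaling. In ventricle-like parts 6 of the 20 passed as lower, where 7.35% of all genes did, with a median of -0.37 against 0.09, and 4 of the 6 turned sign under that scaling. Xirp1 was among the 6 (-2.75, edgeR adjusted p = 0.00698), and became -0.21 under that scaling (edgeR adjusted p = 0.551). Tjp1 (ZO-1), which binds the end of connexin 43, had values of 0.23, -0.19 and -0.12 in the 3 comparisons and passed in none.

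Of 12 transcription factors that act on cardiac connexin genes, 3 passed as higher and 2 as lower in atria of E11.5H. Of all genes tested there, 2.92% passed as higher and 1.97% as lower. The largest changes among the factors were Shox2 (7.34, edgeR adjusted p = 4.25e-08) and Tbx5 (1.66, edgeR adjusted p = 2.85e-06), an activator of Gja5, as higher. As lower they were Irx3 (-2.77, edgeR adjusted p = 2.79e-05) and Hey2 (-1.94, edgeR adjusted p = 6.12e-06). In atrium-like parts 5 factors fell and 1 rose, where 8.81% of all genes tested passed as lower and 16% as higher. The largest falls were Tbx18 (-6.64, edgeR adjusted p = 0.00132) and Shox2 (-4.02, edgeR adjusted p = 0.00192). Of the 6 factors that passed, 2 turned sign under the scaling to cardiomyocyte genes. Under it Tbx18 still passed as lower (-2.91, edgeR adjusted p = 0.000531). Shox2 did not (-0.15, edgeR adjusted p = 0.81). In ventricle-like parts 4 factors fell and 3 rose, where 7.35% of all genes tested passed as lower and 11.6% as higher. Hey2 (-4.79, edgeR adjusted p = 0.000781) and Tbx18 (-3.7, edgeR adjusted p = 0.0166) led the falls. Shox2 (4.9, edgeR adjusted p = 0.00232) and Tbx3 (2.39, edgeR adjusted p = 0.0214) led the rises. Of these 7 factors that passed, 2 turned sign under that scaling. Hey2 still passed as lower under it (-2.03, edgeR adjusted p = 0.00465), and Tbx18 did not (-0.92, edgeR adjusted p = 0.254). Shox2 and Tbx3 stayed higher (7.63 and 5.49).

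Nkx2-5, which acts with Tbx5 on Gja5, fell by 3.77 in atrium-like (edgeR adjusted p = 0.00591) and by 2.35 in ventricle-like parts (edgeR adjusted p = 0.0273), which became -0.1 and 0.08 under that scaling. Tbx5 fell by 3.18 in atrium-like parts (edgeR adjusted p = 0.00352), which became 0.54, and had -0.32 in ventricle-like parts (edgeR adjusted p = 0.419). Tbx3, a repressor of working-muscle connexins in the conduction system, was higher in atria than in ventricles of E11.5H (1.3, edgeR adjusted p = 0.00118) and rose in atrium-like (1.01, edgeR adjusted p = 0.0143) and ventricle-like parts. No gene of the disc list or of the factor list passed between the HO parts, and in the interaction Shox2 alone passed.

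The genes whose levels were most like each member were sought among 12067 genes over the 12 libraries, which fall into 4 groups, so that the values describe mostly the difference of E11.5H and HOs. For Gja5 they were Itgb1bp2 (Pearson r = 0.995), Kcne1l, Tmem182, Apex1 and Mrpl13. For Gjc1 they were Cdh2 (0.991), Cdo1, Slc25a12, Patz1 and Ndrg4, and for Gja4 they were Sox7 (0.98), Acer2, Ednrb, R3hcc1 and Abcc9. For Gjb1 they were Tff3 (0.999), Spink1, Fam83e, Sgk2 and Btnl5-ps, and for Gjb2 they were Plekhg6 (0.996), Liph, Plet1, Cdcp1 and Ilrun. Gja1 and Gja3 had no gene as close, with Azin1 (0.935), Osbpl8, Etv5, Nuak1 and Loxl2 for Gja1 and Clip4 (0.918), Ndrg2, Kpna1, Hspa12a and Ntmt1 for Gja3.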

How the data were processed

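The 12 libraries were grouped by their titles. According to the methods and the submitters' processing notes, reads were mapped to GRCm38/mm10 with STAR. Its version, the counting tool and the annotation release are not given in the sources used here. The authors deposited, for each gene, expected counts of fragments that were not normalized (23.8% of the values are not whole), and FPKM, which is the count per transcript width and per 1 total of the library, with no correction for composition. Counts were rounded and tested with edgeR 4.0.16 in R 4.3.3 (TMM factors and the filterByExpr filter at a count of 10). Each pair of groups was fitted alone, and the interaction over all 12 libraries. The standard error is the log2 fold change divided by the square root of its F statistic. Shares, ratios and relative levels were compared by the exact permutation test. DESeq2 1.42.0, median-of-ratios size factors, no count filter, scaling to cardiomyocyte genes, all libraries in 1 fit, the replicate block and leaving out each library served as alternatives. Tests were checked on simulated data. The members and the gene lists were chosen with earlier results of these data known. The text gives each member in every library, other connexins and pannexins with a mean of at least 1 FPKM in some group, for the disc and factor lists the 2 largest rises and falls that passed plus Tbx5, Nkx2-5, Tbx3 and Tjp1, and the 5 genes most like each member among those with a mean of at least 5 CPM. Some genes that this rule names are not reported here.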

Additional observations from a re-analysis of the deposited data

Results flagged for a closer look

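The chamber difference of Gjd3 was not the same in HOs as in E11.5H. Its order was the reverse in HOs, where it did not pass between the parts. The log2 interaction was -3.99 (SE 0.59, edgeR adjusted p = 0.039, 12 libraries). Scaling to cardiomyocyte genes gave -2.7 and ended this call (edgeR adjusted p = 0.149). Shox2, a factor of the sinus node, had an interaction of -8.94 (SE 0.56, edgeR adjusted p = 0.000193), and -7.78 under that scaling (edgeR adjusted p = 0.0116). The share of Gja5 in the summed connexin FPKM was higher by 24.9 percentage points in atria than in ventricles of E11.5H and differed by -0.715 percentage points between atrium-like and ventricle-like parts. The share of Gjc1 differed by 1.95 percentage points between the chambers of E11.5H and by -6.15 percentage points between the HO parts. For both shares the libraries of each pair of groups did not overlap, and the difference between the pairs was not tested. Each comparison had an exact permutation p of 0.1, the smallest possible (adjusted 0.175 over 28, n = 3 per group). Atrium-like replicates 1 and 3 held 1 fragment of Gja5 each, and the FPKM of Gja5 overlapped between the HO parts.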

How the results depend on the processing

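The correlation of same-numbered libraries was 0 to 0.03 between the chambers of E11.5H. Between the HO parts it was -0.08, 0.62 and 0.42 for replicates 1, 2 and 3. Atrium-like replicates 2 and 3 correlated best with the ventricle-like library of their own number, and replicate 1 did not. The labels do not say whether same-numbered HO parts share an origin, and the main tests did not pair them. With the replicate block 621, 0, 2806, 2003 and 5 genes and 1, 0, 3, 2 and 0 members passed in E11.5H atria against ventricles, between the HO parts, in atrium-like parts against atria, in ventricle-like parts against ventricles and in the interaction. Without the fold limit 1982 genes and 4 members passed in E11.5H and 4462 genes in ventricle-like parts against ventricles. In 1 fit of all 12 libraries 30 genes and 0 members passed in E11.5H. DESeq2 called 72 genes between the HO parts, 4 members in ventricle-like parts against ventricles and 461 genes in the interaction. Scaling to cardiomyocyte genes gave 1021 genes and 2 members between the HO parts, 14313 genes and 7 members in atrium-like parts against atria, 13664 genes and 5 members in ventricle-like parts against ventricles and 12 genes in the interaction. It turned the log2 fold changes of Gja1 (0.37) and Gjc1 (0.1) between the HO parts, of Gja3 (2.72), Gja4 (2.34) and Gjc1 (2.15) against atria, of Gja1 (2.51), Gja4 (0.49) and Gjc1 (1.93) against ventricles and of Gjc1 (0.23) and Gjb2 (1.7) in the interaction. Its construction shifts all genes, since cardiomyocyte genes were lower in HOs. Leaving out 1 library gave 538 to 765 genes in E11.5H, 1662 to 5495 genes and 2 to 5 members against atria, 1116 to 3725 genes and 2 to 4 members against ventricles, and 2 to 216 genes and 0 to 1 members in the interaction. It turned Gja4 between the HO parts (-1.03 to 2.92), Gja1 against atria (-0.01 to 1.12), and Gja4 (-0.57 to 3.34), Gjb1 (-0.16 to 3.25) and Gjb2 (-0.6 to 0.75) in the interaction. The share of Gja5 in atria was 43.4% over all connexins and 48.8% by fragments, and that of Gja1 in ventricles 58.7% by fragments. With a pseudocount of 1 FPKM the log2 ratio of Gja1 to Gja5 was 5.03 in atrium-like and 5.25 in ventricle-like parts, that of Gja1 to Gjc1 2.79 in atrium-like parts, and Gja5 relative to cardiomyocyte genes -1.88 against atria. With 0.01 FPKM the ratio of Gja1 to Gja5 in atrium-like parts was 9.03. Beyond what the construction of an alternative shows, the cause was not tested. Counts near 0 limit the folds of Gja5, Gjb1 and Gjb2.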
